A study of Rattus norvegicus with 18 samples.

Results

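The 4 cartilage matrix genes Col2a1, Col10a1, Acan and Comp were followed through the healing of femoral fractures in young, adult and older rats. They were chosen by symbol. The array named them on 6 of its 8799 probe sets, and 4737 genes had a probe set of their own. Of the 6 probe sets, 5 passed the filter on low signals, so that all 4 genes were among the 2886 genes tested.

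The samples were female Sprague-Dawley rats of 3 ages at fracture: young rats were 6 weeks old, adult rats 26 weeks and older rats 52 weeks. The fractured rats had a closed transverse break of the mid-shaft of a femur that carried an intramedullary rod, and were killed at 3 days or at 1, 2, 4 or 6 weeks. The no fracture rats were sham controls picked at random from rats due for surgery, and the paper does not describe what was done to them. RNA of the middle part of the femur, with its callus, cortical bone and marrow, came from 2 rats pooled on an array, and each age and time had 1 array, 18 in all. The 3 ages therefore served as the replicates of a time, and the times as the replicates of an age. The p-values measure the spread left after time and age are fitted. That spread mixes pools with differences between ages in their course over time, and is not a spread between single rats. In such a mixed tissue, fewer cells of a type and less RNA per cell cannot be told apart.

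A fractured long bone that is not held rigidly heals in part through cartilage. Cells around the break become chondrocytes and lay down a matrix of type II collagen fibrils filled with proteoglycan. The chondrocytes then enlarge, switch to type X collagen, and their matrix mineralizes and is replaced by bone. Col2a1 encodes the chain of type II collagen, the main fibrillar collagen of cartilage. Col10a1 encodes the chain of type X collagen, which is made by hypertrophic chondrocytes. Acan encodes aggrecan, the large proteoglycan whose sulfated sugar chains hold water in cartilage. Comp encodes cartilage oligomeric matrix protein, a glycoprotein that binds collagen fibrils in cartilage, tendon and ligament.

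In the RefSeq annotation of the rat assembly GRCr8, Col2a1 lies at chr7:130977561-131006627, Col10a1 at chr20:39737536-39744518, Acan at chr1:142390951-142453779 and Comp at chr16:19081172-19089548. RefSeq promoter windows of 300 bases, from 250 bases before the start of the gene to 50 after it, were held for 3 of the 4 genes and are shown because their genes were all called higher at 1 and at 2 weeks. The windows are chr20:39737286-39737585 on the plus strand for Col10a1, chr1:142390701-142391000 on the plus strand for Acan and chr16:19089499-19089798 on the minus strand for Comp. Capitals mark the TATA box (TATAAA) in the Col10a1 window and the GC box letters, read as CCGCCC on this strand, in the Acan window.

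Col10a1: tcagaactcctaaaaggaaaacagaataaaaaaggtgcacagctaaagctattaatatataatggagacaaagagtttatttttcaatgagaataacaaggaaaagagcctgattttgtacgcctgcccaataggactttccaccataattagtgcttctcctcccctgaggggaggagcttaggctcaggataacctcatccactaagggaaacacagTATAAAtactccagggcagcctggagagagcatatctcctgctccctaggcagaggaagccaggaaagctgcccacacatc

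Acan: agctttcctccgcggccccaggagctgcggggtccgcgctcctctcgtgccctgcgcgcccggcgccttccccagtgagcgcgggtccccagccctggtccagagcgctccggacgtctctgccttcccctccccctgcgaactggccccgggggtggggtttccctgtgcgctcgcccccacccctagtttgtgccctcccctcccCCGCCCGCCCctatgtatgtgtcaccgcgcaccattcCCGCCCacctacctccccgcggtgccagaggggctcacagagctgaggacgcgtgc

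Comp: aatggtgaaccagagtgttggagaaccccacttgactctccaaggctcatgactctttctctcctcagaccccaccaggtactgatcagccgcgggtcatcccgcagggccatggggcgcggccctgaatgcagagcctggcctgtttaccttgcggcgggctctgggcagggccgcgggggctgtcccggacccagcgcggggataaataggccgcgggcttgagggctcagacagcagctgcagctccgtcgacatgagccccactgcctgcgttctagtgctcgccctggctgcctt

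Motifs were searched by exact letters on both strands, with ACAAT for Sox factors, TGTGGT for Runx factors, TATAAA for the TATA box, TGANTCA for AP-1 and GGGCGG for the GC box. The Col10a1 window held 1 TATAAA, from position -31 to -26 before the start, and 14.2% of all 33469 windows held these letters. The Acan window held 3 GC boxes, of which the first 2 overlap (-43 to -38 and -39 to -34) and the last ends at the base before the start (-6 to -1). These letters were in 33.1% of all windows. The Comp window held none of the 5 motifs. ACAAT was in none of the 3 windows and in 33.7% of all windows, TGTGGT in none of the 3 and in 17.3% of all, and TGANTCA in none of the 3 and in 7.33% of all. The GC content was 44.0% for Col10a1, 73.0% for Acan and 64.7% for Comp, against a median of 51.7%.

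All values are signals in the authors' intensity units, with an average of 500 on each array. A signal below 100 was treated as 100 in the tests, because the dimmest signals have no reliable order, and a fold against a group with such arrays is given as "at least". Folds are taken from mean log2 signals, so they can differ from the ratio of 2 mean signals. Levels of different genes are not compared, since each probe set has its own brightness. On the 18 arrays the median signal of all probe sets ran from 137.2 to 182.6. The ratio of the 5′ to the 3′ control probe sets of Gapdh, a measure of how intact the RNA was, lay between 0.65 and 0.913 on 17 arrays, and at 0.257 for the young rats of 6 weeks. Results at 6 weeks in young rats rest on that array, and values without it stand beside several of the comparisons that use it. The falls of Col10a1 and Acan from earlier times to 6 weeks, and the counts of the gene lists, are given with that array only.

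Col2a1 was at 616.5 in the young no fracture array, and at 47.8 and 61.1, below the floor of 100, in the adult and older ones. At 3 days it was at 688.9 in young, 951.9 in adult and 382.6 in older rats. At 1 week it read 6591 in young, 7034 in adult and 11336 in older rats, and at 2 weeks it had its highest signals at every age, 14462, 11010.4 and 12841. At 2 weeks the young array was the highest and the adult array the lowest of the 3. At 4 weeks the young signal was 629.0, while the adult and older signals were at 6688 and 7059. At 6 weeks it was at 106.4 in young, 2111 in adult and 4870 in older rats, so that the young array was just above the floor. The other Col2a1 probe set read 9.3 to 39.8 and lay below the floor on all 18 arrays, and it was not tested.

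Col10a1 had a narrower time course. It was at 196.7, 7.6 and 8.9 in the young, adult and older no fracture arrays and at 92.8, 32.1 and 5.4 at 3 days, so that only the young no fracture array of these was above the floor. At 1 week the ages were close together, at 863.7, 922.3 and 1010. The highest signals came at 2 weeks, with 5353 in young, 3113 in adult and 5676 in older rats. At 4 weeks the young array, at 55.1, was back below the floor, while adult and older arrays read 912.3 and 1557. At 6 weeks the signals were 46.2, 281.4 and 487.7. The dimmer Col10a1 probe set was also highest at 2 weeks at each age, at 1341, 711.1 and 1810, and ran from 130.7 to 699.1 elsewhere. Over the 18 arrays the pair had a Pearson correlation of 0.90 on the log2 scale, over arrays that share times and ages.

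Acan had its highest signals earliest. Its no fracture signals were 288.4 in young, 14.1 in adult and 16.1 in older rats, and at 3 days they were 1562, 1928 and 1311. For young and adult rats the 3 days signal was the highest of the time course. In older rats the highest signal was 2372 at 1 week, when young and adult rats read 995.6 and 1751. At 2 weeks the signals were 1240.0, 987.6 and 1702. They were 215.3, 560.2 and 993.0 at 4 weeks and 37.1, 199.6 and 895.1 at 6 weeks, in the order young, adult, older at both times.

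Comp was near the floor without fracture, at 95.9 in young, 147.5 in adult and 94.3 in older rats. It was at 384.4, 646.0 and 540.9 at 3 days and at 566.0, 940.7 and 1957 at 1 week. At 2 weeks it was at 1006, 957.9 and 1541, which was the highest signal for young and adult rats but not for older rats. At 4 weeks the signals were 149.6, 450.7 and 1156, and at 6 weeks 140.3, 305.8 and 1166. The older signal thus hardly moved between 4 and 6 weeks, while the young signals at those times lay next to the adult no fracture signal.

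**Figure D1:**
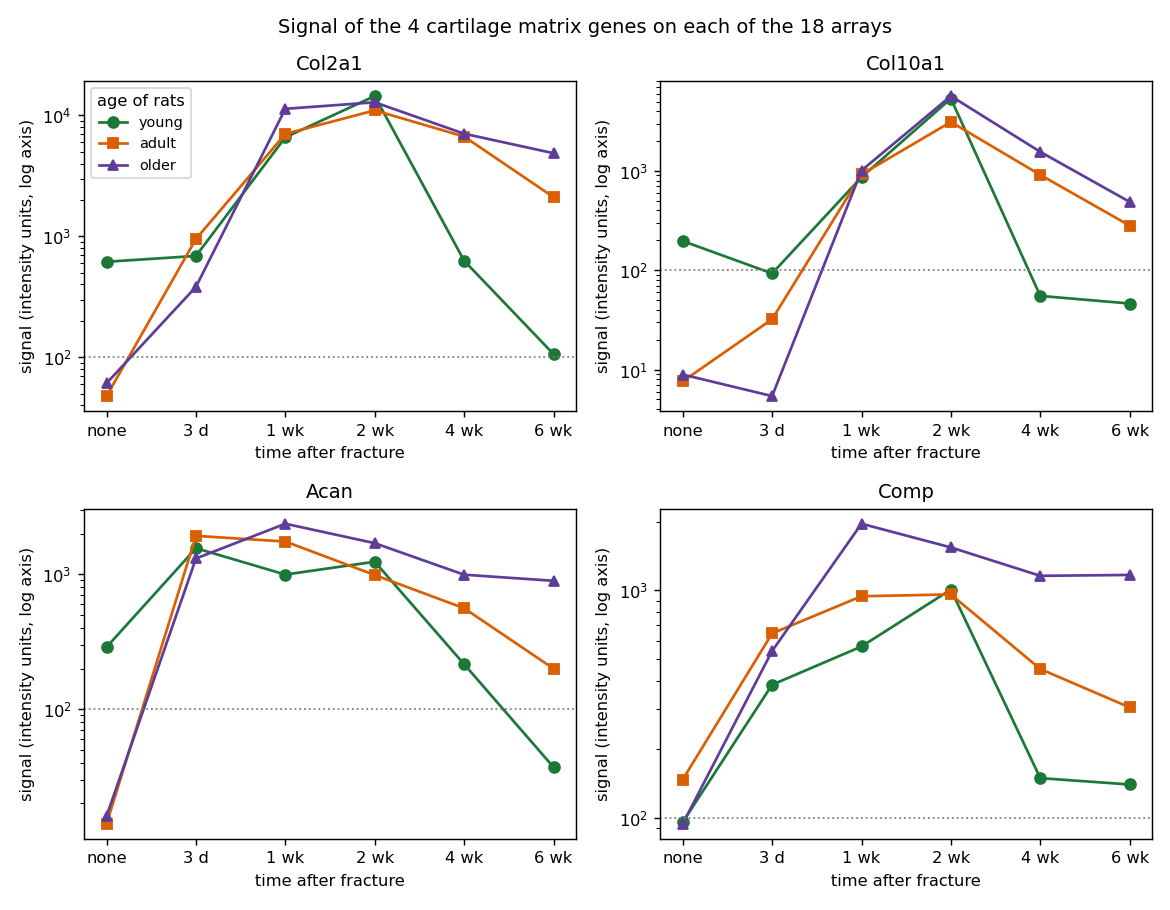
Signal of Col2a1, Col10a1 (its brighter probe set), Acan and Comp by array and time, on a log axis in intensity units, with 1 point per array (2 rats pooled), green circles for young, orange squares for adult and purple triangles for older rats, and a dotted line at the floor of 100. The 3 ages run together from 1 to 2 weeks for Col2a1 and Col10a1, and at 4 and 6 weeks the young points lie lowest in every panel.

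The change from no fracture was tested with time and age as terms (limma, 18 arrays, Benjamini-Hochberg adjustment over 4669 probe sets). All 5 comparisons use the same 3 no fracture arrays. At 3 days 2 of the 4 genes rose, where 24.5% of all probe sets tested were called higher. Acan rose at least 11.1-fold (log2 3.47 ± 0.61 SE, adjusted p = 0.00039). Comp rose at least 4.50-fold (log2 2.17 ± 0.49, adjusted p = 0.0023). The change of Col2a1 at 3 days was 1.78 ± 1.09 (adjusted p = 0.19), and its no fracture and 3 days arrays overlapped. Col10a1 was below the floor on all 3 arrays of 3 days, with a change of -0.33 ± 0.67 (adjusted p = 0.71). Without the young no fracture array, which had the highest Col2a1 and Col10a1 signals of its time, Col2a1 was called (3.21, adjusted p = 0.019). Every Col10a1 array left in that comparison was below the floor. Its fitted change of 0.35 (adjusted p = 0.70) therefore came from the age terms alone and measures no change.

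At 1 week all 4 genes rose, against 14.3% of all probe sets. Col2a1 went from 241.8 ± 324.6 without fracture to 8320.4 ± 2621 (mean ± SD, n = 3), with no overlap of the arrays (adjusted p = 0.0017). Col10a1 rose at least 7.42-fold (log2 2.89 ± 0.67, adjusted p = 0.0052), to 931.8 ± 73.4. Acan stood at 1706 ± 689.4 (adjusted p = 0.00069) and Comp at 1155 ± 719.9, a rise of at least 8.91-fold for Comp (log2 3.15 ± 0.49, adjusted p = 0.00033). The older array was the highest of the 3 for each gene at this time.

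At 2 weeks all 4 genes again rose, against 12.8% of all probe sets. Their median log2 fold change was 4.25, beside -0.0018 over all probe sets tested. Col2a1 reached 12771 ± 1727 (adjusted p = 0.0012), Col10a1 4714 ± 1396 (adjusted p = 0.00019) and Acan 1310 ± 362.4, the latter at least 8.97-fold over no fracture (log2 3.17 ± 0.61, adjusted p = 0.0019). Comp rose at least 10.02-fold (log2 3.33 ± 0.49, adjusted p = 0.00041), to 1168 ± 323.3. The dimmer Col10a1 probe set was called at 2 weeks (log2 2.17 ± 0.35, adjusted p = 0.00069) but not at 1 week (0.63 ± 0.35, adjusted p = 0.21).

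At 4 weeks 2 of the 4 genes were called higher than without fracture, against 5.05% of all probe sets: Col2a1 (log2 4.08 ± 1.09, adjusted p = 0.036) and Comp (1.91 ± 0.49, adjusted p = 0.029). The changes of Col10a1 (2.06 ± 0.67, adjusted p = 0.085) and Acan (1.79 ± 0.61, adjusted p = 0.098) missed the threshold, and the young arrays of both genes lay within the range of the no fracture arrays. The young arrays of Col2a1 and Comp, at 629.0 and 149.6, lay just above the highest no fracture signals, 616.5 and 147.5. At 6 weeks none of the 4 was called, against 3.19% of all probe sets, with changes of 2.49 ± 1.09 for Col2a1, 0.93 ± 0.67 for Col10a1, 0.88 ± 0.61 for Acan and 1.69 ± 0.49 for Comp (adjusted p = 0.21, 0.48, 0.46 and 0.060). At 6 weeks Col2a1 and Comp had an unadjusted p of 0.036 and 0.0031 in limma. These late counts depended on single ages. Without the young arrays all 4 genes were called at 4 weeks and all 4 at 6 weeks, and without the young no fracture array alone 4 were called at 4 weeks and 2 at 6 weeks. Without the young 6 weeks array, the one with the low Gapdh ratio, Col2a1 (4.08, adjusted p = 0.025) and Comp (2.08, adjusted p = 0.035) were called at 6 weeks. At 4 weeks no gene was called without the adult 4 weeks, the older no fracture or the older 4 weeks array, and only Comp was without the adult no fracture array.

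**Figure D2:**
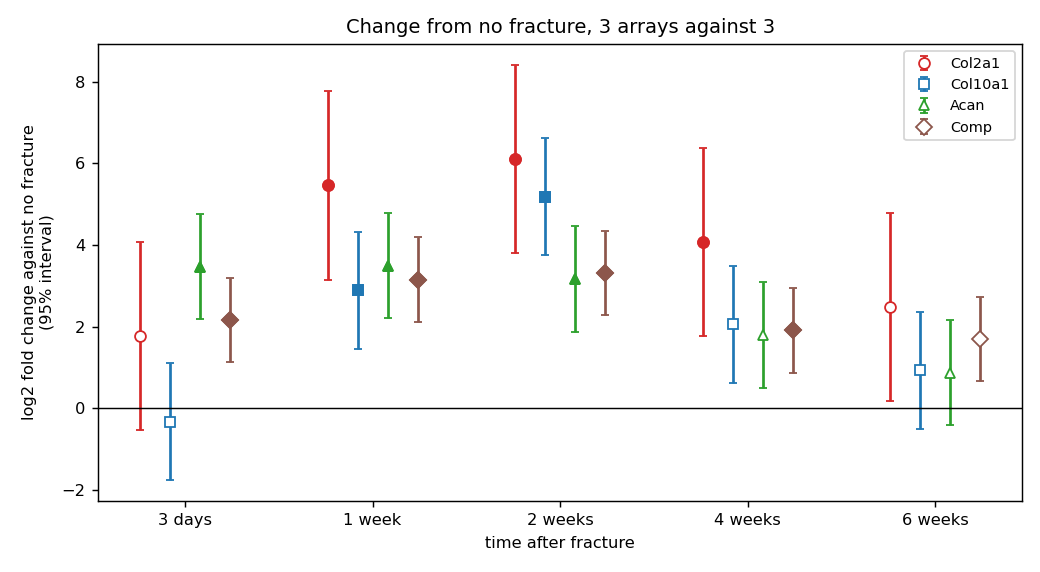
Log2 fold change of each gene from no fracture to each later time, 3 arrays against 3, with 95% intervals from limma, and filled symbols where the adjusted p was below 0.05. Acan and Comp are filled at 3 days, all 4 genes at 1 and 2 weeks, Col2a1 and Comp at 4 weeks, and none at 6 weeks.

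Neighbouring times differed in few cases. Between 3 days and 1 week Col10a1 rose at least 9.30-fold (log2 3.22 ± 0.67, adjusted p = 0.026), where 1.24% of all probe sets were called higher, and the rise of Col2a1 was 3.68 ± 1.09 (adjusted p = 0.072). From 3 days to 2 weeks both collagens rose, Col2a1 by 4.33 ± 1.09 (adjusted p = 0.032) and Col10a1 by 5.51 ± 0.67 (adjusted p = 0.00071), where 2.57% were called higher, while Acan had -0.31 ± 0.61 (95% interval -1.60 to 0.99) and Comp 1.16 ± 0.49 (adjusted p = 0.16). At 4 weeks Col10a1 was still at least 5.22-fold above 3 days (adjusted p = 0.019), where 11.1% were called higher. Between 1 and 2 weeks limma called 0 of the 4 genes and 0 of all probe sets, of which 159 had an unadjusted p below 0.05. Col10a1 was among those 159 (2.29 ± 0.67, unadjusted p = 0.0037 in limma). From 2 to 4 weeks Col10a1 changed by -3.13 ± 0.67 (adjusted p = 0.0501) by its brighter probe set and by -1.76 ± 0.35 (adjusted p = 0.030) by its dimmer one, where 0.0428% of all probe sets were called lower. From 2 to 6 weeks Col10a1 fell by 4.25 ± 0.67 on the log2 scale (adjusted p = 0.0057), from a mean signal of 4714 to 271.8, where 0.814% of all probe sets were called lower. Acan, with a mean signal of 377.3 at 6 weeks, was lower than at 3 days (1600.03, log2 -2.60 ± 0.61, adjusted p = 0.0051) and at 1 week (1706, log2 -2.62 ± 0.61, adjusted p = 0.018), where 18.7% and 3.6% were called lower. Between 4 and 6 weeks none of the 4 genes was called, with unadjusted p from 0.12 to 0.67, and none of all probe sets either, of which 200 had an unadjusted p below 0.05. For Comp no pair of times after fracture was called.

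The order in which the genes peaked can be read as a share of each gene's highest signal at an age, which is a description of single arrays. At 3 days Acan stood at 100% of its highest signal in young and adult and at 55.2% in older rats. Col2a1 at that time stood at 4.76%, 8.65% and 2.98%, and Col10a1 at 1.73%, 1.03% and 0.10%. At 1 week Col2a1 had reached 45.6%, 63.9% and 88.3% of its highest signal, and Col10a1 16.1%, 29.6% and 17.8%. At 6 weeks Comp remained at 13.9% in young, 31.9% in adult and 59.6% in older rats. Col2a1 remained at 0.74%, 19.2% and 37.9%, Acan at 2.38%, 10.4% and 37.7%, and Col10a1 at 0.86%, 9.04% and 8.59%. For 3 of the 4 genes the order at 6 weeks was young, adult, older, and for Col10a1 adult and older were alike in this share. The shares of Col10a1 at 3 days, and of Col10a1 and Acan in young rats at 6 weeks, come from signals below the floor and have no order among themselves.

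**Figure D3:**
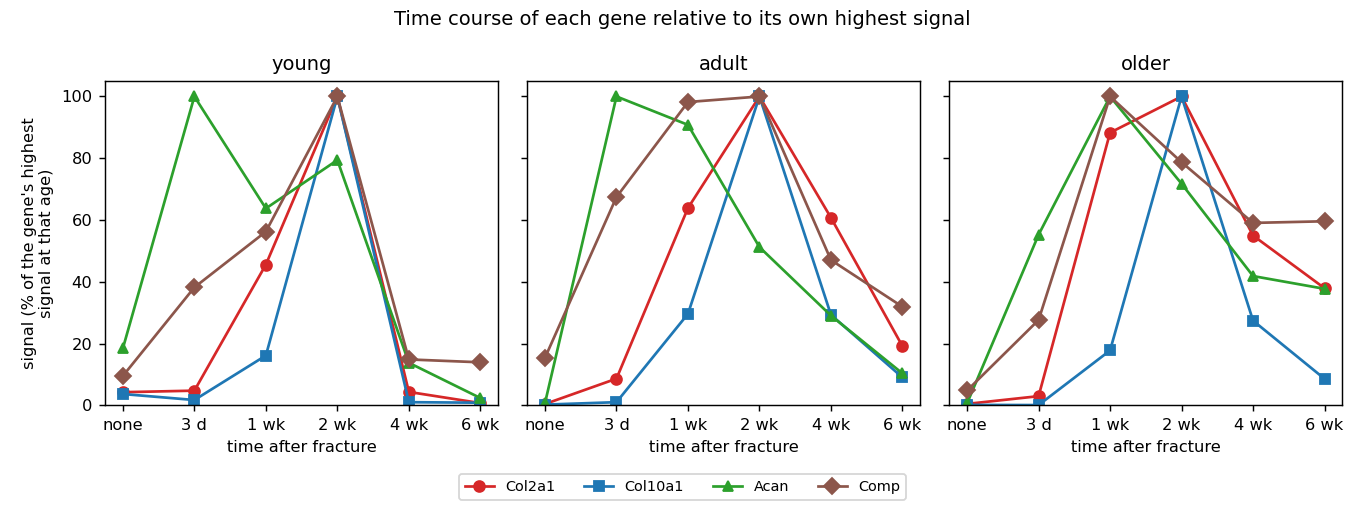
Signal of each gene as a percent of its own highest signal at that age, against time after fracture, in young, adult and older rats, with 1 array per point. Acan is high from 3 days, Col10a1 is a peak at 2 weeks at each age, and the curves at 6 weeks end between 0.74% and 13.9% in young rats and between 8.59% and 59.6% in older rats.

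Age was the question of the study. In the 15 fractured arrays, adjusted for time, none of the 4 genes was called between older and young rats, where 0.15% of all probe sets were called in either direction. Comp came nearest, 3.44-fold higher in older rats (log2 1.78 ± 0.33, adjusted p = 0.052), from 449.3 ± 358.2 to 1272 ± 524.6 (n = 5). Acan differed by 1.36 ± 0.37 (adjusted p = 0.072), Col2a1 by 1.75 ± 0.70 (adjusted p = 0.18) and Col10a1 by 1.31 ± 0.48 (adjusted p = 0.15). Leaving out the older 3 days array (Comp 2.09, adjusted p = 0.0028, and Acan 1.73, adjusted p = 0.0077) or the young 3 days array (1.95 and 1.61, adjusted p = 0.024 and 0.036) brought Comp and Acan past the threshold. Comp alone was called without the young 2 weeks (adjusted p = 0.042) or the adult 3 days array (adjusted p = 0.047). Without the young 6 weeks array none was called, and the differences were 0.94 for Col2a1, 1.10 for Col10a1, 1.09 for Acan and 1.58 for Comp (adjusted p = 0.40, 0.30, 0.17 and 0.11). Between adult and young rats 0 of the 4 genes and 0 of all probe sets were called by limma, of which 618 had an unadjusted p below 0.05, Col2a1 and Comp among them. Without the young 6 weeks array these differences ran from 0.36 for Acan to 0.77 for Col2a1, with none called. Between older and adult rats none of the 4 was called, against 3.73% of all probe sets, with differences from 0.18 ± 0.70 for Col2a1 to 0.96 ± 0.33 for Comp. Without the older 3 days array Comp (1.27, adjusted p = 0.019) and Acan (1.09, adjusted p = 0.044) were called. Set against the no fracture arrays, the older minus young difference after fracture was larger by 4.38 ± 1.72 for Col2a1, 2.29 ± 1.18 for Col10a1, 2.89 ± 0.91 for Acan and 1.78 ± 0.82 for Comp on the log2 scale. For Comp the young and older no fracture arrays were both below the floor, so its value repeats the difference after fracture. For the other genes the older no fracture array was below the floor, so their values depend on where the floor was set. None of the 4 was called in that test (adjusted p = 0.22, 0.36, 0.13 and 0.30), where 2.55% of all probe sets were. Acan was called without the older 3 days array (3.26, adjusted p = 0.034), and without the young 6 weeks array the values were 3.57, 2.08, 2.62 and 1.58, with none called.

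Older and young rats were then compared within the earlier and within the later times. Whether their difference changed between these periods was tested separately, and none of the 4 genes was called. At 1 and 2 weeks, pooled in the fit, none of the 4 genes was called between older and young rats, where 0.514% of all probe sets were called. The older minus young differences were 0.31 (95% interval -0.58 to 1.19) for Col2a1, 0.15 (-0.74 to 1.05) for Col10a1, 0.85 (0.06 to 1.65) for Acan and 1.20 (0.52 to 1.88) for Comp, with adjusted p = 0.82, 0.92, 0.33 and 0.13. Comp was called without the young 2 weeks array (1.70, adjusted p = 0.026). At 4 and 6 weeks all 4 genes were higher in older rats, where 1.88% of all probe sets were called higher (limma, 12 arrays, 2 against 2). Col2a1 averaged 367.7 ± 369.5 (SD, n = 2) in young and 5964 ± 1548 in older rats, 22.7-fold higher by mean log2 signal (4.50 ± 0.40, adjusted p = 0.0022). Comp averaged 144.95 ± 6.58 and 1161 ± 7.28, an 8.02-fold difference (log2 3.00 ± 0.30, adjusted p = 0.0040). Col10a1 was below the floor on both young arrays and averaged 1022 ± 755.8 in older rats, at least 8.71-fold higher (log2 3.12 ± 0.40, adjusted p = 0.0073). Acan averaged 126.2 ± 126.0 in young and 944.05 ± 69.2 in older rats, at least 6.42-fold higher (log2 2.68 ± 0.36, adjusted p = 0.0086). The dimmer Col10a1 probe set differed by 0.96 ± 0.42 (adjusted p = 0.22), and its young and older arrays overlapped.

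These late age differences were large at each of the times, for Col10a1 by its brighter probe set. The older to young ratio of Col2a1 was 11.2 at 4 weeks and 45.8 at 6 weeks, beside 1.72 at 1 week and 0.89 at 2 weeks. For Comp it was 7.73 and 8.31, beside 3.46 and 1.53, and for Acan 4.61 and at least 8.95, beside 2.38 and 1.37. For Col10a1 it was at least 15.6 at 4 weeks and at least 4.88 at 6 weeks, beside 1.17 and 1.06. The dimmer Col10a1 probe set had ratios of 3.85 at 4 weeks and 0.98 at 6 weeks, beside 1.44 and 1.35. Without the young 6 weeks array the log2 differences were 3.77 for Col2a1, 3.97 for Col10a1, 2.54 for Acan and 3.09 for Comp. The Col2a1 difference was thus smaller and the Col10a1 difference larger than with that array, and those of Acan and Comp were close. Acan and Comp lost their calls. Without the older 6 weeks array only Col2a1 kept its call, and Comp differed by 2.83. Such fits compare 2 arrays with 1 and assume that the lone array varies like the rest.

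The adult rats were compared at 4 and 6 weeks after the values had been seen. Col2a1 was higher in adult than in young rats, 14.5-fold (log2 3.86 ± 0.40, adjusted p = 0.0093), and was the only probe set called of all 4669 (0.0214%). It was not called without the young 6 weeks (3.13, adjusted p = 0.18), the adult 4 weeks (3.80, adjusted p = 0.15) or the adult 6 weeks array (3.92, adjusted p = 0.25). Col10a1 differed by 2.34 ± 0.40 (adjusted p = 0.073), Comp by 1.36 ± 0.30 (adjusted p = 0.12) and Acan by 1.19 ± 0.36 (adjusted p = 0.22). Between older and adult rats Comp was higher in older rats, 3.13-fold (log2 1.65 ± 0.30, adjusted p = 0.049), where 0.514% of all probe sets were called higher. This call was lost on leaving out any adult or older array of the fit or the young 4 or 6 weeks array, with adjusted p from 0.058 to 0.40. Acan was called as well without the young 1 week or the young 2 weeks array (adjusted p = 0.033 and 0.034). Acan differed by 1.495 ± 0.36 (adjusted p = 0.075), Col10a1 by 0.78 ± 0.40 (adjusted p = 0.30) and Col2a1 by 0.64 ± 0.40 (adjusted p = 0.39).

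Within an age, 4 and 6 weeks were set against 1 and 2 weeks. In young rats all 4 genes fell, where 2.7% of all probe sets were called lower. Col2a1 fell 37.7-fold (log2 -5.24 ± 0.40, adjusted p = 0.00053), Col10a1 at least 21.5-fold (-4.43 ± 0.40, adjusted p = 0.00061), Acan at least 7.57-fold (-2.92 ± 0.36, adjusted p = 0.0022) and Comp 5.21-fold (-2.38 ± 0.30, adjusted p = 0.0027). In young rats the dimmer Col10a1 probe set had -1.48 ± 0.42 (adjusted p = 0.076), which was not called. Without the young 6 weeks array 3 of these calls held and Acan had -2.78 (adjusted p = 0.060). In adult rats 3 of the 4 fell, where 1.43% were called lower. They were Acan (3.93-fold, adjusted p = 0.016), Comp (2.56-fold, adjusted p = 0.041) and Col10a1 (3.34-fold, adjusted p = 0.045), while Col2a1 had -1.23 ± 0.40 (adjusted p = 0.16). In adult rats the dimmer Col10a1 probe set had -0.68 ± 0.42 (adjusted p = 0.52), which was not called. None was called without the adult 1, 2, 4 or 6 weeks array, and only Acan was without the older 1, 2, 4 or 6 weeks array. The fall of Comp in adult rats also lost its call without the young 4 or the young 6 weeks array, at an unchanged -1.35. In older rats none of the 4 was called, where 1.2% were called lower. The changes were -1.04 ± 0.40 for Col2a1, -1.46 ± 0.40 for Col10a1, -1.09 ± 0.36 for Acan and -0.58 ± 0.30 for Comp (adjusted p = 0.22, 0.091, 0.16 and 0.38). Col10a1 was called without the young 4 or the young 6 weeks array (adjusted p = 0.029 and 0.028).

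Whether this change over time differed between older and young rats was tested directly. The difference was 4.20 ± 0.56 for Col2a1 (95% interval 2.94 to 5.45, adjusted p = 0.098), 2.97 ± 0.57 for Col10a1 (adjusted p = 0.17), 1.83 ± 0.51 for Acan (adjusted p = 0.34) and 1.80 ± 0.43 for Comp (adjusted p = 0.23). Limma called 0 of the 4 genes and 0 of all probe sets, of which 337 had an unadjusted p below 0.05, all 4 genes among them (p from 2.1e-05 to 0.0047). Col2a1 was called without the older 4 weeks array (4.99, adjusted p = 0.018). Without the young 6 weeks array the differences were 3.47 for Col2a1, 3.81 for Col10a1, 1.69 for Acan and 1.89 for Comp, with 0 genes called. The dimmer Col10a1 probe set gave 0.48 ± 0.59 (adjusted p = 0.91). With 4 residual degrees of freedom and an adjustment over 4669 probe sets, the fall in young rats and the uncalled change in older rats are not shown to differ.

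**Figure D4:**
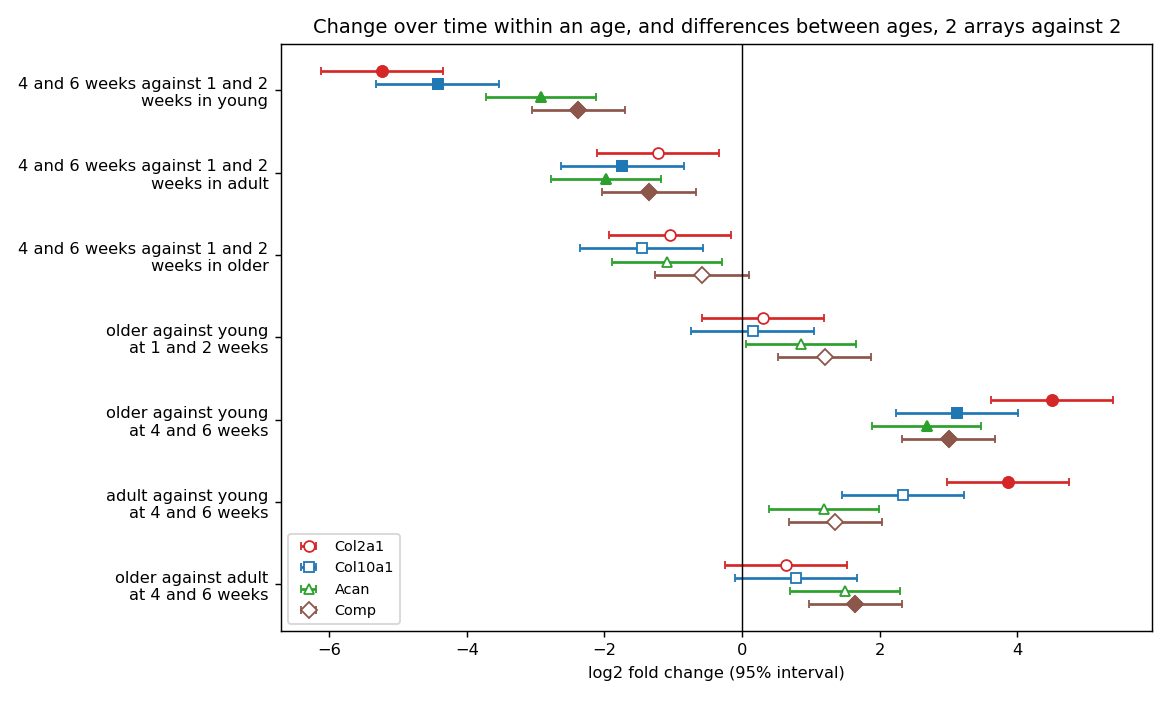
Log2 fold changes with 95% intervals from limma for the change from 1 and 2 weeks to 4 and 6 weeks in each age and for differences between ages, 2 arrays against 2, with filled symbols where the adjusted p was below 0.05. All 4 genes are filled in the rows of the fall in young rats and of the late difference between older and young rats, and none in the rows of the change in older rats and of the early age difference.

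Over the 18 arrays the log2 signals of the 4 genes went together to different degrees, as a description over arrays that share times and ages. Pearson's r was 0.90 for Col2a1 with Col10a1, 0.87 for Acan with Comp, 0.85 for Col2a1 with Comp, 0.74 for Col10a1 with Comp, 0.73 for Col2a1 with Acan and 0.53 for Col10a1 with Acan. Among 2885 other genes tested, the most alike to Col2a1 were Slc22a18 (r = 0.91), a transporter, then Col10a1, the tight junction gene Tjp1 (0.87), Comp and the neuropeptide gene Gal (0.85). For Col10a1 they were Col2a1, Gal (0.81), the transcription factor Maf (0.77), the gelatinase Mmp9 (0.77) and Arsb (0.76), which encodes the sulfatase arylsulfatase B. For Acan they were the membrane metalloproteinase Mmp14 (0.96), the collagen-folding isomerase Ppib (0.95), the lysyl hydroxylase Plod1 (0.95), Rhoc (0.95) and the proteoglycan versican, Vcan (0.94). For Comp they were Aopep (0.91), Frmd6 (0.91), the endothelial adhesion gene Pecam1 (0.91), the nucleoside transporter Slc29a1 (0.89) and fibronectin, Fn1 (0.88).

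Other chondrocyte markers were few on this array. Of Sox9, Matn1, Col9a1, Col11a1 and Hapln1, 2 had a probe set. Col9a1 read 18.2 to 53.2, below the floor on every array, and was not tested. Col11a1, a chain of the type XI collagen that is built into type II collagen fibrils, read 999.0, 152.8 and 58.7 without fracture in young, adult and older rats. At 2 weeks it read 2430.1, 1029 and 1665, a rise of 2.70 ± 0.51 on the log2 scale (adjusted p = 0.0017). At 4 weeks the Col11a1 signals were 1634.0 in young, 843.1 in adult and 1276 in older rats. The young array was the highest there, while it was the lowest for each of the 4 cartilage matrix genes. At 6 weeks the signals were 861.8, 560.8 and 1037, closer together across ages than those of the 4 cartilage matrix genes, a contrast that was not tested.

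Other genes of cartilage were taken from lists, and each list is given by its counts. Of 34 other cartilage matrix genes 8 were tested, and 7 of them rose at 2 weeks against no fracture and 0 fell, with a median log2 fold change of 1.71. They included Col11a1, Fn1 (2.16) and the small proteoglycans biglycan, Bgn (1.93), and decorin, Dcn (1.81). Of 10 genes that fold, cross-link or trim collagen 9 rose, among them the cross-linking enzyme Lox (3.87), the collagen chaperone Serpinh1 (3.17), the propeptidase enhancer Pcolce (2.62) and the lysyl hydroxylase Plod2 (1.86). Of 5 genes of sulfation and glycosaminoglycan synthesis 2 rose, the sulfate donor synthase Papss2 (2.98) and the UDP-glucose dehydrogenase Ugdh (1.22). Of 16 chondrocyte regulators 7 rose, including the parathyroid hormone receptor Pth1r (2.56), the growth factor Igf1 (2.00), the collagen receptor Ddr2 (1.56) and Tgfb3 (1.56).

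Of 13 genes for cartilage breakdown and its inhibitors 8 rose at 2 weeks and 1 fell, led by the osteoclast protease cathepsin K, Ctsk (4.53), the collagenase Mmp13 (3.79), Mmp9 (2.93) and Mmp14 (2.66). Of 9 genes of hypertrophic cartilage and mineralization 5 rose and 0 fell, including bone sialoprotein, Ibsp (3.43), and osteopontin, Spp1 (3.11), which osteoblasts also make, and the annexins Anxa5 (1.41) and Anxa2 (1.39). At the same time 12.8% of all probe sets were called higher and 8.27% lower.

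Between older and young rats at 4 and 6 weeks, where 1.88% of all probe sets were called higher, the lists were counted in the same way. In the other cartilage matrix list 3 of 8 were higher in older rats, tenascin C, Tnc (1.41), Fn1 (1.15) and Bgn (0.94). In the breakdown list 3 of 13 were, the stromelysin Mmp3 (2.55), Mmp9 (1.92) and Mmp14 (1.79). In the collagen folding list 3 of 10 were, Lox (2.30), Plod1 (1.33) and Loxl1 (1.19). Of the 16 regulators 1 was, the growth factor receptor Fgfr1 (1.35). In the sulfation list 0 of 5 and in the mineralization list 0 of 9 were called, with medians of 0.65 and 0.48 beside 0.08 over all probe sets. None of the genes in these lists was called lower in older rats.

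From 1 and 2 weeks to 4 and 6 weeks in young rats, where 2.7% of all probe sets were called lower, 5 of 10 collagen folding genes fell, among them Lox (-3.33), Serpinh1 (-2.05) and the prolyl hydroxylase P4ha1 (-1.24). In the breakdown list 2 of 13 fell, Mmp14 (-2.46) and Mmp9 (-2.43), and 1 rose, the neutrophil collagenase Mmp8 (1.39, adjusted p = 0.030). Of the 16 regulators 2 fell, Fgfr1 (-1.85) and Igf1 (-1.14), and of the 8 other matrix genes 1, Tnc (-1.09). In adult rats, where 1.43% were called lower, 1 of 10 collagen folding genes fell, Lox (-2.50), with 2 of 16 regulators, Ddr2 (-1.99) and Igf1 (-1.35). There 2 of 13 breakdown genes fell, Mmp14 (-1.23) and the metalloproteinase inhibitor Timp2 (-1.03), and 2 of 8 matrix genes, fibromodulin, Fmod (-1.40), and Dcn (-0.88). In older rats, where 1.2% were called lower, Lox (-1.65) was the 1 of 10 collagen folding genes that fell and Igf1 (-1.58) the 1 of 16 regulators. Of the 13 breakdown genes 2 fell, Mmp14 (-0.96) and Timp2 (-0.91), and 1 rose, Mmp3 (1.74), while 0 of 8 matrix genes were called. In the sulfation list 0 of 5 and in the mineralization list 0 of 9 were called at any of the 3 ages.

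Markers of other cells in the femoral segment moved as well. At 2 weeks 7 of 8 osteoblast genes rose, Ibsp, Spp1, the matricellular gene Postn (2.60) and Sparc (1.96) among them, and their summed signal ran from 110010.7 to 134136 against 26597 to 85752 without fracture. Of 9 tendon and ligament fibroblast genes 8 rose, led by the collagens Col5a2 (2.85), Col12a1 (2.56), Col5a1 (2.39) and Col3a1 (2.09). At 3 days, when Acan and Comp were up and Col10a1 was below the floor, 11 of 12 skeletal muscle genes fell, against 19.7% of all probe sets called lower, and their sum was 52271 to 79788 against 116800.5 to 258489 without fracture. All 6 erythroid and all 6 neutrophil genes were lower at 2 weeks than without fracture. The erythroid sum was 12440 to 58934 against 82394 to 118895, with Slc4a1 (-3.80) and Hba-a3 (-3.66) leading. The neutrophil sum was 817.5 to 7736 against 44475 to 86996, with S100a8 (-5.30) leading. The part of these cells in the changes of the cartilage matrix genes was not tested.

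At 4 and 6 weeks the osteoblast sum was alike in young and older rats, at 103543 and 111929.5 in young and 104013 and 114406 in older rats. Between these ages 0 of 8 osteoblast genes were called by limma, with a median log2 difference of 0.08. Without fracture the osteoblast sum was 85752 in young and 26597 in older rats, so like late sums do not mean a like rise. The skeletal muscle sum was 187585 and 217150.0 in young against 102246 and 120953 in older rats, and 3 of 12 muscle genes were lower in older rats, against 0.921% of all probe sets, Myh2 (-1.69), Tnnc2 (-1.13) and Myl1 (-1.11). The adult sums were 212739 and 224649, in the range of the young or above it. The older muscle sum was also below the young one without fracture, at 116800.5 against 220487. It was so at 1 and 2 weeks as well, at 83056 and 118057 against 193785 and 177074, but not at 3 days, at 79788 against 78108. The lower muscle signal of older rats was thus not limited to the late times. The neutrophil sum was 30762 and 61393 in young against 6601 and 12503 in older rats, with Defa5 lower (-2.41). The tendon and ligament fibroblast sum was 36566 and 28088 in young and 49907 and 50770.5 in older rats, and 1 of its 9 genes, Tnc, was higher in older rats. The part of these cells in the age difference was not tested.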

How the data were processed

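RNA of the middle of the femur, pooled from 2 rats for each of 18 arrays, was hybridized by the authors to Affymetrix rat oligonucleotide arrays. The deposited intensities are Microarray Suite signals. Scaling by the authors set the average of each array to 500, which removes any shift of a whole array. Present and absent calls, and the study's other series of arrays, were not used here. Samples were grouped by the age and time in their titles.

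Probe sets were named from the platform's annotation, updated by gene identifier to RefSeq (GRCr8). Of 8799 probe sets, 4669 reached a signal of 200 on 3 or more arrays and were tested. Signals below 100 were set to 100, log2 was taken, and limma 3.58.1 (R 4.3.3; lmFit, eBayes with trend, two-sided) was fitted across them, with Benjamini-Hochberg adjustment and a threshold of 0.05. Every ± beside a log2 fold change is a standard error. Times were compared with time and age as terms (18 arrays), ages with the same terms (15 arrays after fracture), and periods with age by period and time within period (12 arrays). The difference from no fracture used 18 arrays with an age by fracture term. The number of arrays limits the precision. A gene with several probe sets is given by the one of highest mean signal. Figures were drawn with matplotlib 3.10.9 (Python 3.11.15). The fits were tested on simulated data.

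The member genes, gene lists and tests were chosen with earlier results of these data known. All probe sets of the 4 genes are named. From each list, up to 4 called genes of largest change are named at 2 weeks, up to 3 between periods and between older and young rats, and the 5 genes most alike to each member by Pearson's r of log2 signals over the arrays. Comparisons of adult rats at 4 and 6 weeks were added after values were seen. Alternatives were other floors, filters, scalings, probe sets and terms, the methods' t-test, and leaving out arrays or ages.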

Additional observations from a re-analysis of the deposited data

How the results depend on the processing

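Of 440 recomputed counts of the 4 genes called, 362 stayed within 1.5 times, and of 1760 values for single genes 1591 kept direction and call, 119 lost the call, 39 gained it and 11 turned direction. A floor of 20 gave 2 genes for the change over time in older against young rats, 1 for the age difference beyond no fracture, and, at 4 and 6 weeks, 2 for adult against young and 0 for older against adult. A floor of 200 gave 2 for older against young at 4 and 6 weeks, 0 for older against adult and 0 for the fall in adult rats. Without a filter on low signals, which adds probe sets to the adjustment, the counts were 0 at 4 weeks against no fracture, 0 for each of the 3 age contrasts at 4 and 6 weeks and 0 for the fall in young and in adult rats. A filter at 500 and equal array medians each gave 1 for older against young after fracture, and quantile normalization and equal medians each 0 for older against adult at 4 and 6 weeks. At 4 weeks against no fracture the count was 1 with no age term and 0 on the 6 arrays of the times alone. Without all young arrays it was 4 at 4 weeks and 4 at 6 weeks, without all adult arrays 1 at 3 days, 2 at 1 week, 2 at 2 weeks and 0 at 4 weeks, and without all older arrays 0 at 4 weeks. No time term gave 1 for the fall in adult rats and 0 for adult against young at 4 and 6 weeks. The methods' t-test, after Benjamini-Hochberg adjustment, gave 0 at 1, 2 and 4 weeks, 0 for the 3 age contrasts at 4 and 6 weeks and 0 for the fall in young and adult rats. At an unadjusted p below 0.05 it gave 4, 4 and 1 at 1, 2 and 4 weeks, 2 for older against young, 1 for each other age contrast at 4 and 6 weeks, 2 for the fall in young and 1 for that in adult rats. Leaving out 1 array at a time gave 2 to 3 genes at 3 days, 0 to 4 at 4 weeks and 0 to 2 at 6 weeks against no fracture, 0 to 2 for older against young and for older against adult after fracture, and 0 to 1 for older against young at 1 and 2 weeks. At 4 and 6 weeks it gave 1 to 4 for older against young, 0 to 1 for adult against young and 0 to 2 for older against adult. It gave 0 to 3 for the fall in adult rats, and 0 to 1 for that in older rats, for the change over time between ages and for the difference beyond no fracture. None of the 11 turned values was called. The dimmer Col10a1 probe set gave -0.21 for adult against young after fracture, and Acan at 6 weeks was at -0.27 without the older arrays. Without 1 array, Col10a1 at 3 days ran from -0.79 to 0.35, where the value of 0.35 compared only arrays below the floor. Older minus adult Col2a1 ran from -0.42 to 0.69 after fracture and from -0.15 to 1.43 at 4 and 6 weeks, and at 1 and 2 weeks older minus young ran from -0.055 to 0.67 for Col2a1 and from -0.10 to 0.41 for Col10a1. The cause of these changes was not tested. Age as a term set the times against each other within age, and of the 5 times against no fracture its omission moved the count by over 1.5 times at 4 weeks alone. By replicate number, no paired analysis was possible because each age and time had 1 array, so that no group held a second replicate number to pair.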
